A study of Homo sapiens with 12 samples.

Results

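The enzymes that turn homocysteine into cysteine and those that build, cleave and recycle glutathione were followed in HEK293T cells and in R1, a methionine-independent clone of HEK293T. The 10 genes are CBS and CTH of transsulfuration, GCLC, GCLM and GSS of glutathione synthesis, CHAC1, CHAC2, GGCT and OPLAH of glutathione breakdown, and GSR, which reduces oxidized glutathione. They were chosen by symbol from this pathway and are all among the 23500 entries of the count table. Of the 10, 9 passed the filter on low counts, as did 17162 of all entries, and OPLAH did not.

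HEK293T is a human embryonic kidney cell line that proliferates poorly when homocysteine replaces methionine, whereas R1 proliferates in either medium. Cells of both lines were held for 12 h in +Met medium, which contains methionine, or in −Met+Hcy medium, which holds homocysteine instead, and RNA from 3 libraries of each of the 4 groups was sequenced. Both media were prepared with added cysteine and vitamin B12 according to the study's methods. R1 is a single clone, and what differs between it and HEK293T cells cannot be assigned to methionine independence rather than to the clone. The titles of the R1 libraries name R1 while their cell line label reads HEK293T.

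In transsulfuration, cystathionine beta-synthase (CBS) joins homocysteine to serine, and cystathionine gamma-lyase (CTH) releases cysteine from the product. Glutamate-cysteine ligase, a catalytic subunit (GCLC) with a modifier subunit (GCLM), couples cysteine to glutamate, glutathione synthetase (GSS) adds glycine, and CHAC1 and CHAC2 cleave the finished tripeptide inside the cell. CHAC1 and CTH are known targets of the ATF4 pathway, through which cells respond to a shortage of amino acids, and GCLC, GCLM and GSR are known targets of NRF2, the oxidative stress regulator.

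Promoter sequence is shown for the genes whose levels moved with the medium and for each match to the DNA motifs of these pathways. Windows from 250 bases before to 50 bases after the transcription start were available from RefSeq (build GRCh38.p14) for 6 of the 10 genes, CBS, CTH, CHAC1, CHAC2, GCLC and GCLM. On both strands they were searched for the C/EBP-ATF response element, TGATGNAA, and for the antioxidant response element, TGACNNNGC, which share their first 3 letters but cannot match at the same place. The C/EBP-ATF letters occurred in the CHAC1 window, from 209 to 202 bases before the start on the opposite strand, and in 3.62% of all 35116 promoter windows. The antioxidant letters occurred in the GCLM window, from 34 to 26 bases before the start, in 1 of the CBS windows, from 83 to 75 bases before the start, and in 13.3% of all windows. Counted by gene symbol, the C/EBP-ATF letters occurred in 4.46% and the antioxidant letters in 16.1% of 27305 symbols. CTH, CHAC2 and GCLC held neither set of letters in these windows. Each match is given below with its neighbouring bases in the direction of the gene, the matched letters in capitals, at chr15:40953251-40953280 on the + strand for CHAC1, chr1:93909445-93909474 on the − strand for GCLM and chr21:43076441-43076470 on the − strand for CBS. Distances are from the RefSeq starts. In GENCODE v44, CHAC1 begins at 40952962 and CBS at 43076943, so both stretches lie inside the gene as annotated there. The GCLM stretch spans its GENCODE start at 93909456. The 200 bases before the first exon of CTH in GENCODE, at chr1:70411018-70411217 on the + strand, are printed because CTH rose without such a match.
CHAC1: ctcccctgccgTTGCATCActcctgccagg
GCLM: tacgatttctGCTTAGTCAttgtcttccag
CBS: ccggctctggGCGCGGTCAcgcggggcgct
CTH: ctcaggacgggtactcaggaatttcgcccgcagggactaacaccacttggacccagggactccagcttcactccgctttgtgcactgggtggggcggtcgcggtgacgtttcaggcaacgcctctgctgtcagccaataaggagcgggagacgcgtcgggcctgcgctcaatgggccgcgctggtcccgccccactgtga

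Libraries held 12664158 to 18771349 counts. Of 8 HEK293T marker genes, 6 reached 1 CPM (counts scaled to the library's total) in HEK293T cells and 8 in R1 cells, and of 10 markers of MDA-MB-468, the other parental line of the study, 6 were at 0 in all libraries and 1 reached 1 CPM. One library stood apart. In R1 −Met+Hcy replicate 3, deviations from its group tracked the GC content of the transcript over 11043 genes (rho -0.74, Spearman, against -0.34 to 0.73 elsewhere), and leaving it out lowered the model's common dispersion from 0.109 to 0.035. Calls that changed without this library are given both ways. The values are shares of a library's RNA from bulk cultures, so a change in the share of expressing cells and a change in RNA per cell cannot be told apart. Levels below are CPM from column sums, whereas fold changes come from the TMM-scaled model. Between media in HEK293T cells, the median log2 fold change over all entries was 0.33 under column sums and 0.034 under TMM. Between the lines in +Met it was 0.37 and 0.019. Small differences in CPM are to be read against that shift.

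In HEK293T cells, CTH and CHAC1 rose in −Met+Hcy medium and the other 7 tested genes were not called in either direction. Calling required a change of more than 1 on the log2 scale, in either direction, together with an adjusted p under 0.05 in edgeR's quasi-likelihood test. These 2 of 9 genes stand beside 3.04% of all tested entries called higher, and 0 of 9 were called lower, beside 1.59%. By the adjusted p alone, GCLM and GSR were also lower, 2 of 9 beside 2.78% of all entries. The median log2 fold change of the 9 genes was -0.25, and that of all tested entries was 0.034. In R1 cells 0 of the 9 genes were called, beside 0.00583% of entries in either direction.

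**Figure D1:**
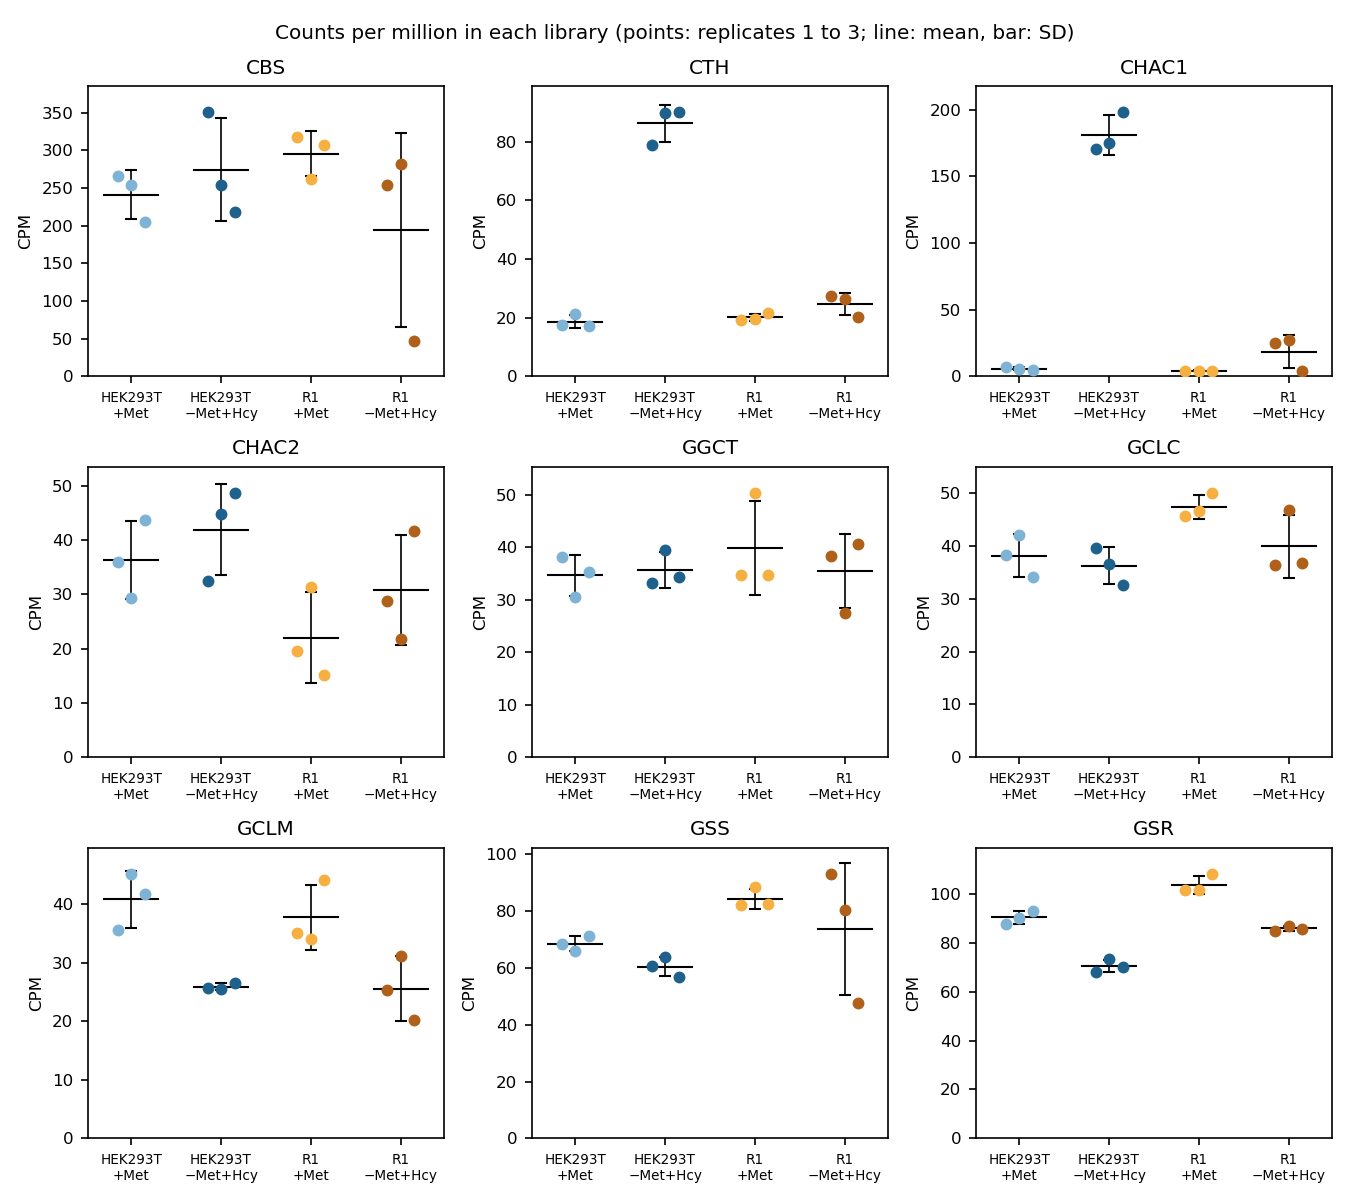
CPM of the 9 tested genes in each library of the 4 groups, with a panel per gene, points for replicates 1 to 3, a line for the mean and a bar for the SD (n = 3). CTH and CHAC1 are highest in HEK293T −Met+Hcy, and for CHAC1 replicates 1 and 2 of R1 −Met+Hcy lie above R1 +Met. R1 −Met+Hcy replicate 3 lies below the other 2 of its group for CBS, CTH, CHAC1, GCLM and GSS.

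CTH (ENSG00000116761, chromosome 1, 70411218 to 70439851, + strand, GRCh38) changed with the medium in HEK293T cells. It was at 17.4, 21.2 and 17.2 CPM in the 3 HEK293T +Met libraries and at 78.9, 89.9 and 90.0 CPM in −Met+Hcy. The 2 sets of libraries were fully apart, as they were in this direction in 38.6% of all entries. The rise was 3.80-fold (log2 fold change 1.93, standard error 0.17, edgeR's adjusted p = 0.000226). The call held in all 24 alternatives, with log2 fold changes of 1.88 to 2.21. In R1 cells CTH was at 19.3, 19.4 and 21.5 CPM in +Met and at 27.3, 26.4 and 20.2 CPM in −Met+Hcy. The media overlapped in CPM, but not on the TMM scale of the model, where +Met ran from 17.6 to 19.5 and −Met+Hcy from 21.8 to 24.5. The R1 libraries were separated in this direction on that scale in 4.89% of all entries. The log2 fold change of CTH in R1 was 0.33, with a 95% interval from -0.049 to 0.71 (edgeR's adjusted p = 0.622). The difference between the responses was itself called, at -1.60 on the log2 scale in R1 against HEK293T (standard error 0.23, edgeR's adjusted p = 0.046), beside 0.0583% of all entries. This call was narrow. The adjusted p was 0.00291 without R1 −Met+Hcy replicate 3 and 0.0696 to 0.223 in edgeR's test on leaving out 1 of the remaining 11, while the difference stayed between -1.92 and -1.55 on the log2 scale in all alternatives. In +Met the lines differed by -0.24 (95% interval -0.62 to 0.14), and in −Met+Hcy CTH was 3.57-fold lower in R1 than in HEK293T cells (log2 fold change -1.84, standard error 0.17, edgeR's adjusted p = 8.03e-05).

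CBS, the enzyme before CTH, was not called in any comparison. Between the lines in −Met+Hcy its adjusted p ran from 0.0466 to 0.655 over the edgeR and DESeq2 fits. Per kb of transcript it had the highest level of the 10 genes in 3 groups, at 96.6, 118 and 77.9 CPM per kb in HEK293T +Met, R1 +Met and R1 −Met+Hcy, and in HEK293T −Met+Hcy it stood at 109.8 beside 119 CPM per kb for CHAC1. Its means were 241 ± 32.4 CPM in HEK293T +Met, 274 ± 68.2 in HEK293T −Met+Hcy, 295 ± 29.7 in R1 +Met and 194 ± 128 in R1 −Met+Hcy (SD, n = 3). The last mean combines 254 and 281 CPM with 47.0 CPM in replicate 3, and was 268 CPM without that library. The log2 fold change was -0.12 in HEK293T cells (95% interval -1.09 to 0.86) and -0.62 in R1 cells (-1.60 to 0.36), or -0.18 in R1 without replicate 3. CBSL is a near-identical copy of CBS that was not analysed here, and the counting could assign its reads to CBS.

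CHAC1 (ENSG00000128965, chromosome 15, 40952962 to 40956512, + strand), a gamma-glutamylcyclotransferase that cleaves glutathione and is induced under amino acid stress, had the largest rise of the 10 genes. Its counts were 111, 80 and 79 in the HEK293T +Met libraries and 2431, 2976 and 3008 in −Met+Hcy, or 5.75 ± 1.08 and 181 ± 14.8 CPM (SD, n = 3). The groups were far apart, and the rise was 25.7-fold (log2 fold change 4.68, standard error 0.50, edgeR's adjusted p = 0.000537). It was called in all 24 alternatives. In R1 cells the counts were 74, 75 and 55 in +Met and 338, 410 and 78 in −Met+Hcy. Replicates 1 and 2 stood at 24.6 and 27.0 CPM, above all R1 +Met libraries, whereas replicate 3 stood at 4.16 CPM, inside their range of 4.07 to 4.34. On the TMM scale replicate 3 was at 4.47, above the R1 +Met range of 3.88 to 3.94, and still below 22.1 and 24.2 in replicates 1 and 2. The log2 fold change in R1 was 2.11 (standard error 0.46) with an adjusted p of 0.622 from edgeR's test. It was 2.56 with an adjusted p of 3.9e-05 without replicate 3, 2.41 with 0.000405 once trends with GC content and length had been taken out of each library, and 2.11 with 0.00649 in DESeq2 with all libraries kept. Without replicate 3, 0.0176% of all entries were called higher in R1.

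The CHAC1 responses of the lines were also compared. The difference between the responses was -2.57 on the log2 scale (standard error 0.64, edgeR's adjusted p = 0.241), and -2.12 with an adjusted p of 0.00208 without replicate 3, where 1.08% of all entries were called in this direction. With all libraries kept it was called in DESeq2 (-2.57, adjusted p = 0.00981) and in edgeR with the GC and length trends taken out (-2.36, adjusted p = 0.00351). In +Met medium the 3 R1 libraries were each below the 3 HEK293T libraries for CHAC1, at a log2 fold change of -0.80 (95% interval -1.86 to 0.27), which was not called. In edgeR's test its adjusted p was 0.302, and 0.00426 without replicate 3 or 0.0138 with the trends taken out, still short of the fold threshold. In these 2 fits 15.7% and 9.79% of all entries passed the adjusted p on the lower side. Libraries were separated in this direction in 9.15% of all entries in CPM and in 20.7% on the TMM scale. In −Met+Hcy CHAC1 was 10.3-fold lower in R1 (log2 fold change -3.37, standard error 0.47, edgeR's adjusted p = 0.00094), and -2.92 on the log2 scale without replicate 3. The 2 of 9 genes called lower in R1 in this medium, CTH and CHAC1, stand beside 4.66% of all entries, and 0 of 9 were called higher, beside 5.29%.

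CHAC2, the paralog of CHAC1 that cleaves glutathione more slowly, was not called with the medium in any fit. In HEK293T cells its adjusted p was under 0.05 in 1 of them, at a log2 fold change of 0.31 (edgeR's adjusted p = 0.0492), with the GC and length trends taken out and R1 −Met+Hcy replicate 3 left out. It was at 36.05, 29.4 and 43.7 CPM in HEK293T +Met and at 32.5, 44.8 and 48.6 CPM in HEK293T −Met+Hcy, ranges that overlap. In R1 +Met it was at 19.5, 31.3 and 15.2 CPM. R1 was lower than HEK293T in +Met by a log2 fold change of -1.07 (standard error 0.36) that missed the threshold in edgeR's test (adjusted p = 0.0775). In that comparison 0 of 9 genes were called, beside 7.66% of all entries. The CHAC2 difference was called without R1 −Met+Hcy replicate 3 (log2 fold change -1.07, edgeR's adjusted p = 0.0118), without R1 +Met replicate 2 (-1.45, 0.0292), with the 2 groups alone (-1.05, 0.0215) and in DESeq2 (adjusted p = 0.0321), and dropped to -0.31 once trends with GC content and length had been taken out. Over all entries, 14.3% were called in this comparison without R1 −Met+Hcy replicate 3 and 10.6% in DESeq2. In −Met+Hcy the CHAC2 difference between the lines was -0.43 on the log2 scale (edgeR's adjusted p = 0.445). With the trends taken out it was -0.45 (edgeR's adjusted p = 0.0241), where 13.1% of all entries passed on the lower side. CHAC2 has the lowest transcript GC content of the 10 genes, at 36.3%.

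GGCT, which converts the gamma-glutamyl amino acids left by glutathione breakdown into 5-oxoproline, was at group means of 34.7 to 39.9 CPM and was not called in any comparison. Its log2 fold change in HEK293T cells was -0.25 (95% interval -0.82 to 0.31) and turned to 0.043 under column sums. OPLAH, which opens 5-oxoproline to glutamate, had 1 count in HEK293T −Met+Hcy replicate 2, 2 counts in R1 +Met replicate 3 and 0 in the other 10 libraries. A count of 0 allows up to 3 counts, or 0.16 to 0.237 CPM in these libraries, for counting error only, so OPLAH was not detectable at this depth beyond these reads.

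GCLM (ENSG00000023909, chromosome 1, 93885199 to 93909456, − strand), the modifier subunit of glutamate-cysteine ligase, had a lower CPM in −Met+Hcy medium in both lines. Its HEK293T libraries were at 35.5, 45.1 and 41.7 CPM in +Met and at 25.7, 25.4 and 26.5 CPM in −Met+Hcy. The R1 libraries were at 35.1, 34.1 and 44.1 CPM and at 25.4, 31.2 and 20.2 CPM. In neither line did the media overlap. Over all entries, the −Met+Hcy libraries lay below the +Met libraries in 9.8% in HEK293T cells and in 4.87% in R1 cells. In either direction the shares were 48.4% and 10.1%. The log2 fold change was -0.95 in HEK293T cells (standard error 0.18), which passed the adjusted p (0.0101 in edgeR's test) and not the fold threshold, and -0.53 in R1 (standard error 0.18, adjusted p = 0.622), which did not pass. Column sums gave -0.66 in HEK293T cells with an adjusted p of 0.0546 in edgeR's test. GCLM was called lower in HEK293T cells with the GC and length trends taken out (-1.03, edgeR's adjusted p = 0.011), likewise with the replicate block or without R1 −Met+Hcy replicate 3 beside it, and without HEK293T +Met replicate 1 (-1.02, edgeR's adjusted p = 0.0322). The adjusted p exceeded 0.05 without HEK293T +Met replicate 3 (0.0512), without −Met+Hcy replicate 1 (0.0514) and without −Met+Hcy replicate 2 (0.0609).

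GCLC, the catalytic subunit, did not pass the test. It was at 38.2, 42.1 and 34.1 CPM in HEK293T +Met and at 39.5, 36.5 and 32.6 CPM in −Met+Hcy, with a log2 fold change of -0.37 (95% interval -0.75 to 0.0055, adjusted p = 0.203 in edgeR's test). R1 cells held it at 47.4 ± 2.23 (+Met) and 39.9 ± 5.92 CPM (−Met+Hcy; SD, n = 3). GSS, the second enzyme of synthesis, was at 68.6 ± 2.61 and 60.4 ± 3.36 CPM in HEK293T cells (SD, n = 3), with no overlap. Libraries were separated in this direction in 9.8% of all entries. The log2 fold change of GSS was -0.48 (95% interval -0.91 to -0.043), with an adjusted p of 0.156 in edgeR's test. In R1 it was at 84.3 ± 3.58 CPM in +Met and at 92.9, 80.5 and 47.7 CPM in −Met+Hcy. Between the lines in −Met+Hcy the log2 fold change of GSS was 0.25 (edgeR's adjusted p = 0.416). It was 0.42 without R1 −Met+Hcy replicate 3 (edgeR's adjusted p = 0.0325) and 0.53 with the GC and length trends taken out (edgeR's adjusted p = 0.00797). In these fits 15.7% and 16.8% of all entries passed on the higher side. Without R1 −Met+Hcy replicate 3 the adjusted p in HEK293T cells was 0.0492 for GCLC and 0.0117 for GSS in edgeR's test, at the same log2 fold changes, and 12.5% of all entries passed on the lower side.

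GSR (ENSG00000104687, chromosome 8, 30678066 to 30727846, − strand), the reductase that restores glutathione from its oxidized form, varied by 1.12 to 3.62% (coefficient of variation of CPM) within groups. It was at 87.7, 90.3 and 93.2 CPM in HEK293T +Met and at 68.2, 73.2 and 70.1 CPM in −Met+Hcy. In R1 it was at 101.6, 101.6 and 107.9 CPM and at 84.9, 86.8 and 85.8 CPM. The 4 groups were ordered R1 +Met, HEK293T +Met, R1 −Met+Hcy and HEK293T −Met+Hcy, with no overlap between neighbours in CPM. All R1 libraries lay above all HEK293T libraries in 38.1% of all entries in +Met and in 13.9% in −Met+Hcy. For GSR the order of the lines in +Met turned under TMM, at -0.16 against 0.20 on the log2 scale. In −Met+Hcy the lines differed by 0.27 on the log2 scale (edgeR's adjusted p = 0.253). With the GC and length trends taken out it was 0.37 (edgeR's adjusted p = 0.0198), where 16.8% of all entries passed on the higher side. Between media the log2 fold change was -0.65 in HEK293T cells (standard error 0.15, adjusted p = 0.0254 in edgeR's test) and -0.22 in R1 cells (standard error 0.15, adjusted p = 0.666). In HEK293T cells the adjusted p exceeded 0.05 with column sums (log2 fold change -0.36, edgeR's adjusted p = 0.111), with the replicate block (0.0604) and when any of the 6 HEK293T libraries was left out, up to 0.107.

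**Figure D2:**
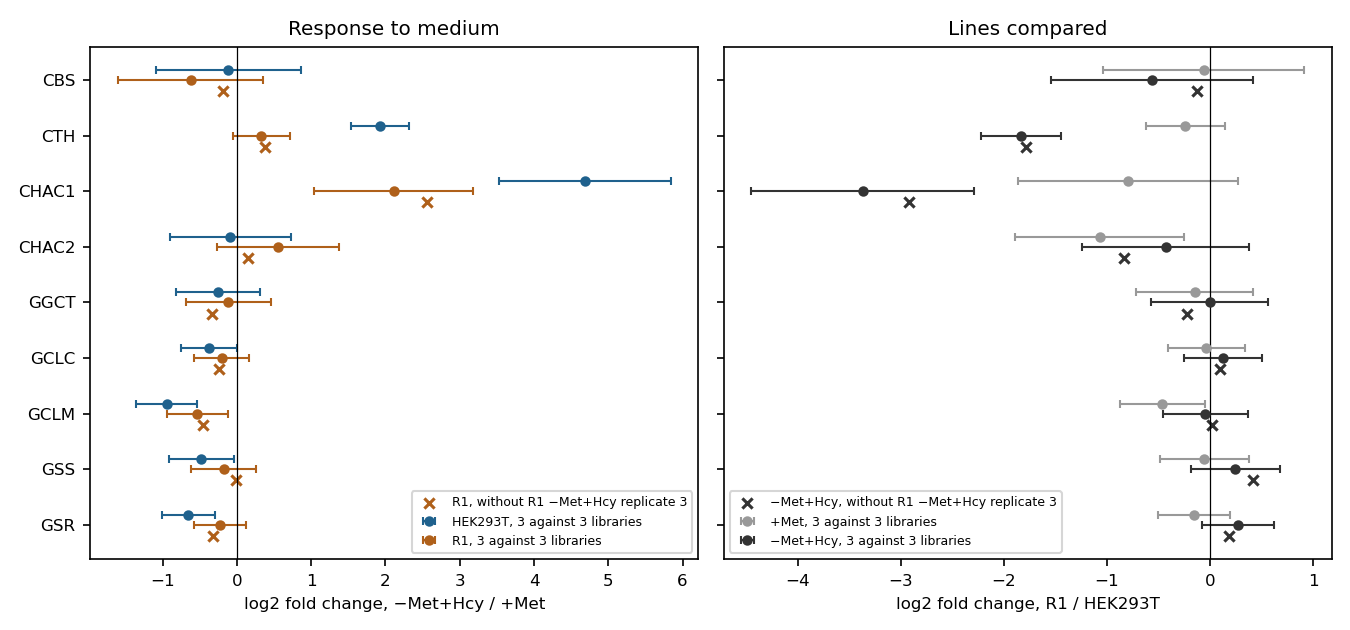
Log2 fold change of the 9 tested genes with the 95% interval (t distribution, 8 degrees of freedom), for −Met+Hcy against +Met on the left and for R1 against HEK293T on the right, 3 libraries a group; crosses give the value without R1 −Met+Hcy replicate 3. CTH and CHAC1 lie at 1.93 and 4.68 in HEK293T cells and at -1.84 and -3.37 between the lines in −Met+Hcy, and the other 7 genes lie between -1.07 and 0.55 in these 4 comparisons.

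The library that stood apart was lowest for the genes of highest GC content. Relative to the mean of the other 2 libraries of its group on TMM-scaled values, R1 −Met+Hcy replicate 3 had 0.193 times the level of CHAC1 (GC content 61.2%), 0.21 times that of CBS (58.7%) and 0.659 times that of GSS (55.9%). At the other end, CHAC2 (36.3%) stood at 1.97 times and GGCT (42.8%) at 1.48 times, whereas GCLM (37.3%) stood at 0.857 times and CTH (43.0%) at 0.904 times. Over all entries the median of this ratio was 0.316 for the 1187 with a GC content of 60 to 65%, 0.505 for the 1551 at 55 to 60%, 1.44 for the 2456 at 40 to 45% and 1.74 for the 2031 at 30 to 40%. CHAC1 and CBS were thus below the median entry of like GC content, and GCLM and CTH were also below theirs. With the trends taken out of each library, the R1 log2 fold changes were 2.41 for CHAC1, -0.42 for CBS and 0.17 for CHAC2, against 2.11, -0.62 and 0.55 before.

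**Figure D3:**
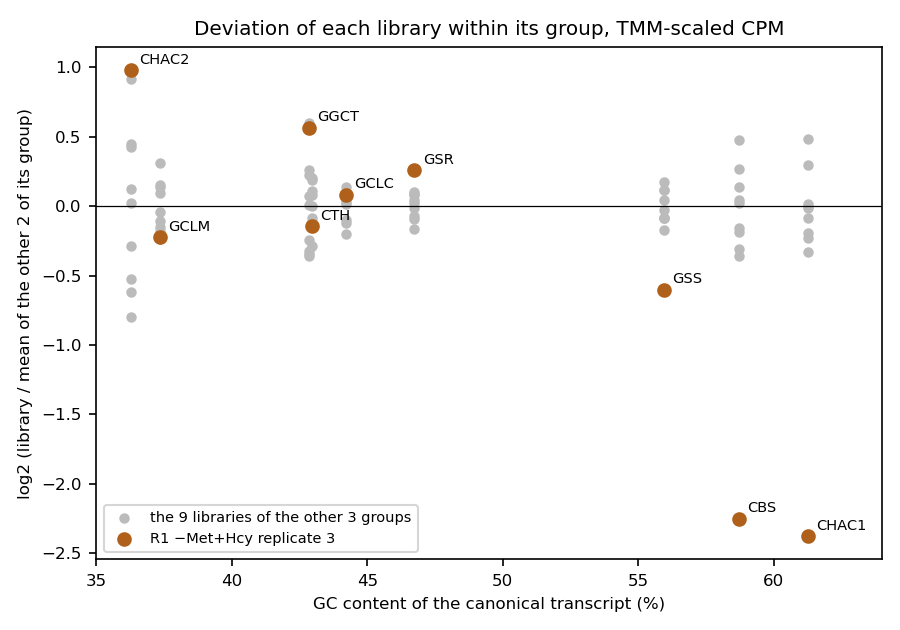
Log2 ratio of a library to the mean of the other 2 of its group (TMM-scaled CPM) against the GC content of the canonical transcript, for the 9 tested genes; orange points are R1 −Met+Hcy replicate 3 and grey points the 9 libraries of the other 3 groups. CHAC1 and CBS lie at -2.37 and -2.25 in that library, below all grey points.

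Per kb of transcript, the balance within 3 pairs of enzymes differed between the media. These ratios are descriptions of the same counts. GCLM was at 0.833 ± 0.114 of GCLC in HEK293T +Met and at 0.559 ± 0.0653 in −Met+Hcy (SD, n = 3), with 0.722 as the lowest +Met value and 0.631 as the highest −Met+Hcy value. In R1 the ratio was 0.616 ± 0.0617 in +Met and 0.495 ± 0.0604 in −Met+Hcy. R1 +Met, from 0.568 to 0.686, lay below all HEK293T +Met libraries. CHAC1 was at 0.141 ± 0.0393 of CHAC2 in HEK293T +Met and at 3.80 ± 0.632 in −Met+Hcy, which turned the order of the paralogs. In R1 −Met+Hcy that ratio ran from 0.0858 to 1.06. CTH was at 0.0928 ± 0.0127 of CBS in HEK293T +Met and at 0.395 ± 0.114 in −Met+Hcy, and at 0.0816 ± 0.00839 in R1 +Met. CTH thus remained below CBS per kb in every library. In R1 −Met+Hcy it ran from 0.112 to 0.514, where the highest value is that of replicate 3, the library in which CBS was low.

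**Figure D4:**
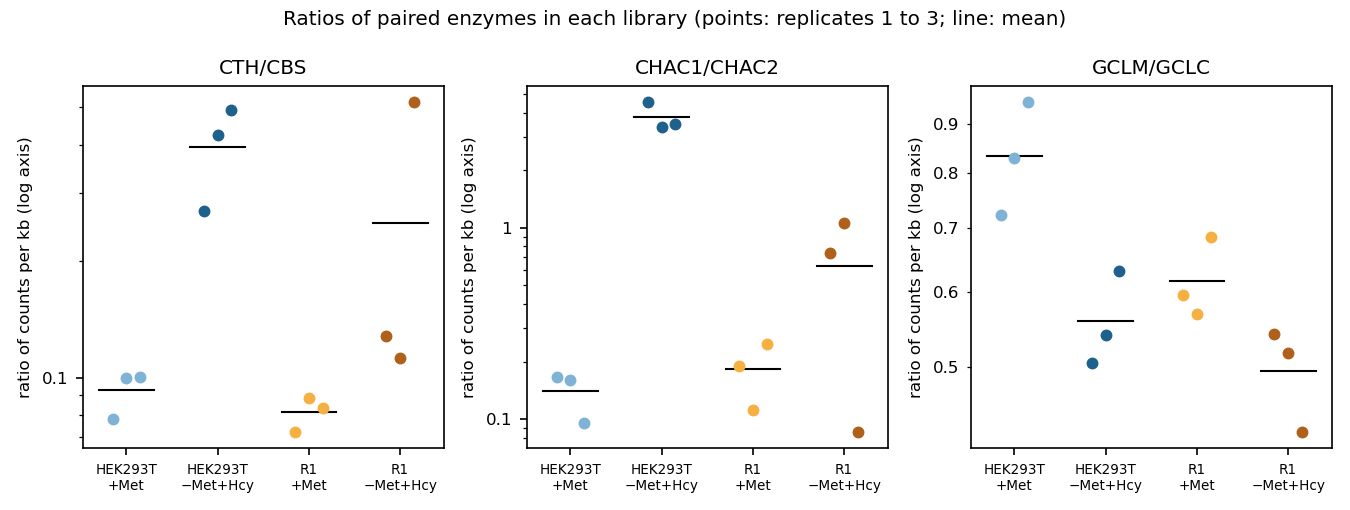
Ratio of counts per kb of transcript for CTH to CBS, CHAC1 to CHAC2 and GCLM to GCLC in each library, on log axes, with points for replicates 1 to 3 and a line for the mean. In HEK293T cells the media do not overlap in any of the 3 ratios, and in R1 −Met+Hcy replicate 3 is the extreme point of each.

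The neighbouring steps were counted in lists that do not hold the 10 genes. Of 13 tested genes that oxidize cysteine or sulfide, 0 were called in any comparison, and their median in HEK293T cells was -0.16 on the log2 scale. Of 11 transporters of cystine, its precursors and glutathione, 2 were higher and 1 lower in HEK293T cells in −Met+Hcy, beside 3.04% and 1.59% of all entries. SLC7A11, the cystine importer, rose from 18.5 ± 8.04 to 156 ± 7.04 CPM (log2 fold change 2.79, standard error 0.27, edgeR's adjusted p = 0.000459). SLC3A2, its partner chain, had a log2 fold change of 1.17 that was not called (edgeR's adjusted p = 0.0932). SLC1A4, an exchanger of small neutral amino acids, rose by 1.65 on the log2 scale, and SLC1A1, a carrier of glutamate and cysteine, was lower by a log2 fold change of -1.45. In R1 cells 0 of the 11 were called with the medium, beside 0.00583% of all entries in either direction. SLC7A11 was at 8.15 ± 0.394 CPM in R1 +Met and at 22.6 ± 5.54 CPM in R1 −Met+Hcy (SD, n = 3). Between the lines in −Met+Hcy, 1 transporter was called higher in R1, SLC1A1 at 2.55, and 4 lower, SLC7A11 at -2.82, SLC1A5 at -2.18, SLC3A2 at -2.09 and ABCC2 at -1.94. Over all entries, 5.29% were called higher and 4.66% lower there. In +Met, SLC1A4 and SLC1A1 were higher in R1 at 2.31 and 1.64, and ABCC2 and SLC7A11 lower at -2.52 and -1.52. These counts stand beside 4.71% of all entries called higher and 2.95% called lower.

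Genes that use or break down glutathione outside these steps were counted in the same way. Of 29 tested glutathione-dependent enzymes, ESD, the S-formylglutathione hydrolase, was called lower in HEK293T cells (210 ± 15.7 to 106 ± 11.9 CPM, log2 fold change -1.28, edgeR's adjusted p = 0.0148), and 0 were called higher. Of 8 tested peptidases that act on extracellular glutathione, ANPEP was called lower, with 13, 4 and 7 counts in HEK293T +Met and 0, 0 and 0 in −Met+Hcy. Over all entries, 1.59% were called lower and 3.04% higher with the medium in HEK293T cells. Between the lines in +Met, GPX3 was higher in R1 (log2 fold change 1.29), and MGST1 (-1.29), GPX4 (-1.12) and ESD (-1.02) were lower. These 1 and 3 of the 29 enzymes stand beside 4.71% and 2.95% of all entries. In −Met+Hcy the 1 enzyme of this list that was called was GLRX5, lower in R1 at -1.08, and -0.82 without replicate 3. Over all entries, 4.66% were called lower there.

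The lists of the regulators to which these genes belong differed in their counts. These lists were chosen with earlier results of these data known. Of 15 genes of the amino acid response, 9 were called higher in HEK293T cells and 0 lower, beside 3.04% and 1.59% of all entries. Their median log2 fold change was 1.39, beside 0.034 over all entries. The 5 largest among the 9 were NUPR1 (4.15), DDIT4 (3.91), SESN2 (2.73), ATF3 (2.45) and CEBPG (2.00). In R1 cells 0 of 15 were called, beside 0.00583% of all entries in either direction, and the median was 0.24. In the test of the difference between the responses, 1 of 15 was called, lower in R1, beside 0.0583% of all entries. The median difference was -1.03, beside -0.057 over all entries. Of 15 NRF2 targets apart from the 10 genes, 0 were called in HEK293T cells in either direction, 1 was lower by the adjusted p alone, TALDO1 at -0.92, and the median was -0.46. Between the lines in −Met+Hcy, 10 of 15 genes of the amino acid response were called lower in R1 and 0 higher, whereas among the NRF2 targets 1 was higher, NQO1 at 2.48, and 1 lower, HMOX1. Over all entries, 4.66% were called lower and 5.29% higher in this comparison.

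Over 11031 genes that averaged 5 CPM or more, those whose centred log2 CPM over the 12 libraries lay closest to CTH were DUSP10, ZBED9 and NHSL1, with root mean square differences of 0.223, 0.231 and 0.237, where a flat profile would give 0.865. ZBED9 went from 173, 175 and 154 counts to 832, 1073 and 903 in HEK293T cells. Closest to CHAC1 were H1-2 (a linker histone gene with close relatives, among which counting could split reads), SLC7A11 and SERTAD1, at 0.794, 0.872 and 1.06, where a flat profile would give 2.16. The likeness to CHAC1 was weaker, and SERTAD1, with 221, 147 and 69 counts in R1 −Met+Hcy, was lowest in replicate 3, as CHAC1 was.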

How the data were processed

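The authors quantified 12 libraries with kallisto v0.48.0 (GRCh38) and deposited estimated counts, which they had summed by gene and made whole numbers; these counts carry no scaling for depth. The members and gene lists were chosen with earlier results of these data known. All 10 members are named, as are the called genes of the other lists (at most 5 per list and comparison), SLC7A11, SLC3A2 and the 3 genes nearest in profile to CTH and to CHAC1.

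Entries with a summed count of at least 10 were tested with edgeR 4.0.16 in R 4.3.3 (TMM, quasi-likelihood, 1 mean for each of 4 groups, 8 residual degrees of freedom), with Benjamini-Hochberg adjustment over all entries. Standard errors were derived from the F statistic. Log2 CPM used a prior count of 2. Coordinates, GC content and length come from GENCODE v44. The labels do not say whether libraries are separate cultures, so p-values measure the spread between libraries. Alternatives were DESeq2 1.42.0, RLE scaling, filterByExpr, no filter, pairwise groups, a replicate block, GC and length trends removed (loess, span 0.3), robust dispersion, 1 entry per set of copies, adjusted p alone and each library left out. Column-sum scaling, and trend removal without R1 −Met+Hcy replicate 3, were chosen after the data were seen. The fits were tested on simulated data.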

Additional observations from a re-analysis of the deposited data

Results flagged for a closer look

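The response of CTH to −Met+Hcy medium differed between the lines in a test of the difference itself, at -1.60 on the log2 scale in R1 against HEK293T cells (edgeR's quasi-likelihood test, adjusted p = 0.046 over all entries). The call was narrow. In edgeR's test the adjusted p was 0.00291 without R1 −Met+Hcy replicate 3 and 0.0696 to 0.223 on leaving out any other library. With the replicate block it was 0.172. All 3 HEK293T −Met+Hcy libraries lay above all 3 +Met libraries, in CPM and on the TMM scale of the test. Over all entries this held in 38.6% in CPM and in 24.8% on the TMM scale. In R1 the libraries of the media overlapped in CPM and were apart on the TMM scale, where −Met+Hcy lay above +Met in 4.89% of all entries.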

How the results depend on the processing

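Of 1116 recomputed log2 fold changes (45 results under 25 alternatives), 1069 kept direction and call, 20 gained a call, 14 lost one and 13 turned sign; for changes smaller than their standard error, a turn in sign that was not called was not counted in most cases. Members called in HEK293T cells numbered 2, 4 with the adjusted p alone, and 3, with GCLM, when the GC and length trend was removed (alone, with the block or without R1 −Met+Hcy replicate 3) and without HEK293T +Met replicate 1. In R1 cells they numbered 0, and 1 with DESeq2, with the GC and length trend removed (with or without the block, or without R1 −Met+Hcy replicate 3), and without that library (0 to 1 over left-out libraries). For the difference they numbered 1, and 2 with DESeq2 and with the GC and length trend removed (again alone, with the block or without replicate 3), but 0 with no filter, with the replicate block and with 1 entry per set of copies (0 to 2 over left-out libraries). Between the lines in +Met they numbered 0, and 1 with DESeq2 and with the 2 groups alone (0 to 1 over left-out libraries). The sign turned for GGCT in HEK293T cells (0.059, 0.059 and 0.056 in the 3 fits with the trend removed and 0.043 with column sums), for the CHAC2 difference (-0.14, -0.14 and -0.11 with the trend removed), for the GSS difference (-0.013, column sums), for CTH between the lines in +Met (0.080, 0.069 and 0.071 with the trend removed and 0.11 with column sums) and for GSR there (0.20, column sums). These values were not called. A further turn concerned GGCT between the lines in +Met, from -0.15 to 0.46 with the trend removed (edgeR's adjusted p = 0.0244, and 0.00606 without replicate 3 as well), short of the fold threshold. The cause was not tested.

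Replicate numbers are shared by all groups, and the labels do not say whether same-numbered libraries were handled together. Such libraries correlated at -0.50 to 0.48 in their deviations. This cannot settle the question, because the deviations of single libraries also track GC content. With the replicate block the adjusted p of the CTH difference was 0.172 in edgeR. Over all entries, calls for the difference numbered 10, and 190 with DESeq2, 236 without R1 −Met+Hcy replicate 3 and 182 with the trend removed. CBS could not be summed with CBSL, which was not analysed here, and the difference of responses could not be fitted on 2 groups alone; both were not run. Depth limits OPLAH and ANPEP.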
